A study of Mus musculus with 50 samples.

Results

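Livers of pregnant CD-1 mice given perfluorooctanoic acid (PFOA) at 1 mg/kg/day, called PFOA1, were compared with those of dams given the vehicle, 0 mg/kg/day, called control. The members were the maternal arrays whose titles give these groups, 5 of PFOA1 and 5 of control, or 10 of the 50 arrays of the series. All dams were of the outbred CD-1 strain, were dosed daily by oral gavage through gestation and were killed at gestational day 17.5, when a piece of the left lateral lobe was frozen. Total RNA was measured on Affymetrix whole-transcript arrays, and values are the deposited log2 signals, so a difference of 1 is a doubling. Also used were maternal livers at 5 mg/kg/day PFOA (PFOA5, 5 arrays) and female fetal livers of the PFOA1 (5 arrays) and control (5 arrays) groups, 1 fetus per litter. Maternal livers given GenX (hexafluoropropylene oxide dimer acid) at 2 or 10 mg/kg/day, 5 arrays each, entered the fit only through the shared estimate of the spread. The labels name each array as a replicate of its group without an animal number, so the p-values measure the spread between these samples. All 30627 named genes were tested, each by its brightest probe, and a gene is called where its Benjamini-Hochberg adjusted p is under 0.05.

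PFOA is a fully fluorinated fatty acid that the body hardly breaks down and that gathers in liver. In rodents it activates the peroxisome proliferator-activated receptor alpha (PPARA), a nuclear receptor that pairs with the retinoid X receptor (RXRA) and binds direct repeats of AGGTCA-like half-sites in the DNA near its target genes. The best known targets carry fatty acids into the cell and oxidise them in microsomes, peroxisomes and mitochondria. Some ligands of this class also activate the receptors CAR and PXR, which raise drug-metabolising enzymes. Late pregnancy is itself a time of high lipid flux through the maternal liver.

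The 10 arrays had medians between 5.29 and 5.37, and the 95th percentile of their 5222 negative controls lay between 7.52 and 7.68. Between 5443 and 6420 genes per array lay above that percentile, and 23546 genes lay at or below it on all 10 arrays. A gene at or below it on every array of a group is called not well above background there. The 9 measured markers of mature hepatocytes, albumin (Alb) and transthyretin (Ttr) among them, were above it, with a median difference between PFOA1 and control of -0.03. The lymphocyte (9 genes), neutrophil (10 genes) and adipocyte (5 genes) markers were not well above background on any of the 10 arrays. In whole tissue, fewer cells of a type and less RNA per cell cannot be told apart.

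Some arrays stood apart from their group. PFOA1 replicate 1 had the signals of control livers at most genes that were raised in the other PFOA1 livers, as described below. It also had the lowest signal of the 10 arrays in 110 of 133 small nucleolar, 5S ribosomal and Y RNA genes, with a median difference of -0.76 from the control mean, against -0.32 to 0.15 on the other PFOA1 arrays and -0.21 to 0.15 on the control arrays. That list was chosen after its values were seen. Over 5968 genes above background, 1.52% of the genes of replicate 1 lay more than 2-fold from the control mean, against 0.704% to 0.955% on the other PFOA1 arrays and 0.134% to 0.385% on the control arrays. Control replicate 1 had signal from genes known from placenta: the placental prolactin Prl2c2 stood at 7.97 there, against 3.98 to 4.50 on the PFOA1 arrays and 4.47 to 5.26 on the other control arrays. Tpbpa, a spongiotrophoblast gene, stood at 8.64 in control replicate 1 and at 8.23 in control replicate 5, against 5.28 to 6.35 on the PFOA1 arrays and 5.42 to 5.79 on the other control arrays. The part of these differences in the results was not tested. Main results that rest on replicate 1 are given with and without it, apart from list counts between doses, the dose difference of Pigr and fetal differences of single genes.

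Over all arrays, 10 of 30627 genes (0.0327%) were called between PFOA1 and control livers, 9 of them higher in PFOA1 (0.0294%) and 1 lower (0.00327%). At an unadjusted p under 0.05 there were 1526. The higher genes were the fatty acid desaturases Scd1 and Scd3, the peroxisomal enzyme Ehhadh, the omega-hydroxylase Cyp4a32, the pyruvate dehydrogenase kinase Pdk4, the phospholipid transfer protein Pltp, the fatty acid binding protein Fabp5, and the gene models Gm2814 and Gm6166. The lower gene was Tbc1d9. Across the transcriptome, 135 genes (0.441%) had every PFOA1 array above every control array and 87 (0.284%) every PFOA1 array below, and 4 of the 10 called genes were among them.

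Scd1 puts the double bond into stearic and palmitic acid and lies on chromosome 19 (44394450 to 44407709, GRCm38.p6). Its signal was 11.38, 11.94, 12.11, 12.06 and 11.85 in PFOA1 replicates 1 to 5, against 10.78, 11.33, 10.36, 10.79 and 10.44 in control replicates 1 to 5. All PFOA1 livers lay above all control livers, although PFOA1 replicate 1 and control replicate 2 lay close together. Scd1 averaged 11.87 ± 0.29 in PFOA1 and 10.74 ± 0.38 in control (SD, n = 5 each), a log2 change of 1.13 ± 0.15 (SE), or 2.19-fold, with an adjusted p of 0.00188. Whichever of the 10 arrays was left out, Scd1 was called, the 1 gene of the 10 with this record. Its neighbour Scd3 on the same chromosome (44203288 to 44244016) was not well above background in either group. Scd3 read 6.95 to 7.50 in PFOA1 and 6.45 to 6.97 in control, with a log2 change of 0.52 and an adjusted p of 0.0266. The desaturase genes are alike in sequence, and the probes' specificity was not tested.

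Ehhadh, the bifunctional enzyme of peroxisomal beta-oxidation, lies on chromosome 16 (21761285 to 21787834). The PFOA1 arrays read 10.54, 11.94, 12.18, 12.29 and 12.36, and the control arrays 10.40, 10.59, 10.36, 10.55 and 10.47. The PFOA1 livers other than replicate 1 lay far above the controls, and replicate 1 lay among them. The log2 change of Ehhadh was 1.39 ± 0.20 (SE, 95% interval 0.97 to 1.81, adjusted p = 0.00741), and 1.72 ± 0.08 without replicate 1 (adjusted p = 3.22e-12). It was called in 8 of the 10 leave-one-out fits.

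**Figure D1:**
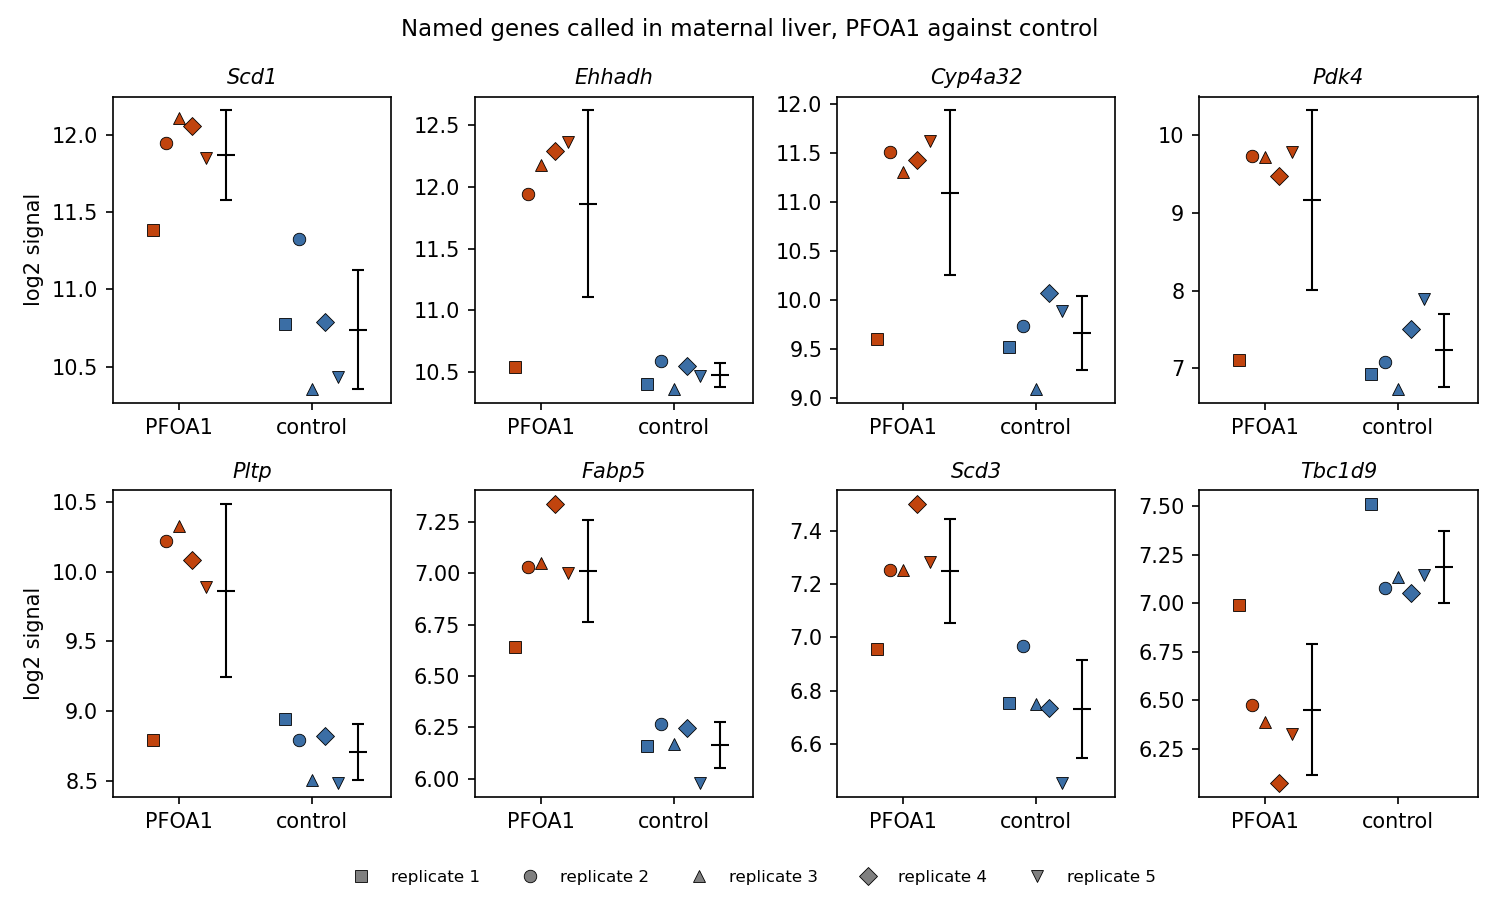
Log2 signal of 8 of the 10 called genes on each array, PFOA1 (orange) left of control (blue), with a marker shape per replicate number and a bar for the mean and SD (n = 5). PFOA1 replicate 1 (square) lies among the controls for Ehhadh (10.54), Cyp4a32 (9.61), Pdk4 (7.11) and Pltp (8.79), and above them for Scd1 (11.38) and Fabp5 (6.64).

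Cyp4a32, a microsomal fatty acid omega-hydroxylase gene of chromosome 4 (115600927 to 115622507), had the same shape. It read 9.61, 11.51, 11.31, 11.43 and 11.62 in PFOA1 and 9.52, 9.74, 9.09, 10.07 and 9.89 in control. Replicate 1 lay within the control range. The log2 change was 1.43 ± 0.25 (SE; adjusted p = 0.0266), and 1.81 without replicate 1. The Cyp4a genes are close relatives, and a probe may read more than 1 of them.

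Pdk4 inhibits pyruvate dehydrogenase and so spares glucose while fatty acids are burnt (chromosome 6, 5483351 to 5496278). Its signal was 7.11, 9.73, 9.72, 9.47 and 9.78 in PFOA1, against 6.93, 7.08, 6.73, 7.51 and 7.90 in control. Replicate 1 again read as a control did, and the groups overlapped. Pdk4 averaged 9.16 ± 1.15 in PFOA1 and 7.23 ± 0.47 in control (SD, n = 5 each), a log2 change of 1.93 ± 0.33 (SE, adjusted p = 0.0266). Without replicate 1 the change was 2.45. Pdk4 was above the background percentile on 5 of the 10 arrays only, PFOA1 replicates 2 to 5 and control replicate 5. The size of its change thus rests on control signals mostly at background. Pltp, which moves phospholipid between lipoproteins (chromosome 2, 164839518 to 164857708), read 8.79, 10.22, 10.33, 10.08 and 9.89 in PFOA1 and 8.94, 8.79, 8.5, 8.82 and 8.48 in control. Its log2 change was 1.16 ± 0.20 (SE; adjusted p = 0.0266), and replicate 1 lay inside the control range.

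A few called genes were higher in replicate 1 too. Fabp5, an intracellular fatty acid carrier (chromosome 3, 10012585 to 10016610), read 6.64, 7.03, 7.05, 7.34 and 7.0 in PFOA1 and 6.16, 6.26, 6.17, 6.25 and 5.98 in control. All PFOA1 livers lay above all controls, but no array of either group was well above background. Fabp5 had a log2 change of 0.85 ± 0.16 (SE; adjusted p = 0.045). Gm2814, a long noncoding RNA gene of chromosome 8, read 7.38, 7.67, 7.66, 7.57 and 7.92 in PFOA1 and 6.41, 7.05, 6.98, 6.81 and 6.62 in control, where it was not well above background. The groups did not overlap, and its mean was at least 1.02-fold higher in PFOA1 (measured means 7.64 and 6.77; adjusted p = 0.0262). Gm6166 averaged 9.06 ± 0.57 in PFOA1 and 7.76 ± 0.26 in control (SD, n = 5 each; log2 change 1.29; adjusted p = 0.0266), and its replicate 1 value of 8.12 lay under control replicate 2 at 8.19.

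Tbc1d9, a gene with a Rab GTPase-activating domain (chromosome 8, 83165352 to 83272940), read 6.99, 6.48, 6.39, 6.08 and 6.33 in PFOA1, against 7.51, 7.08, 7.14, 7.05 and 7.15 in control. The groups did not overlap, but Tbc1d9 was not well above background in either. The log2 change of Tbc1d9 was -0.73 ± 0.13 (SE; adjusted p = 0.0266). Leaving out single arrays ended most of these calls: in the 10 such fits Gm2814 was called in 3, Gm6166, Pdk4, Scd3 and Tbc1d9 in 2 each, and Cyp4a32, Fabp5 and Pltp in 1 each. The count of called genes was 125 without PFOA1 replicate 1, between 1 and 3 without any one of the other PFOA1 arrays or control replicates 1, 3, 4 and 5, and 9 without control replicate 2. No gene was called when the fit held only the PFOA1 and control arrays (limma; 1712 genes at an unadjusted p under 0.05), against 147 when that fit left out replicate 1.

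Without PFOA1 replicate 1, 125 genes were called (0.408%), 93 higher in PFOA1 (0.304%) and 32 lower (0.104%). That array was set aside because of its own values at these genes, so the count describes the other 4 PFOA1 livers and is not a separate test. The 93 higher genes ran from 0.29 to 3.82 on the log2 scale. Of them, 14 were not well above background in either group and 16 only reached that level in PFOA1. The 32 lower genes ran from -1.86 to -0.25, with 13 not well above background in either group and 4 not well above it in PFOA1. These counts include replicate 1, so a lower gene above background in PFOA1 only on replicate 1 is not among the 4.

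**Figure D2:**
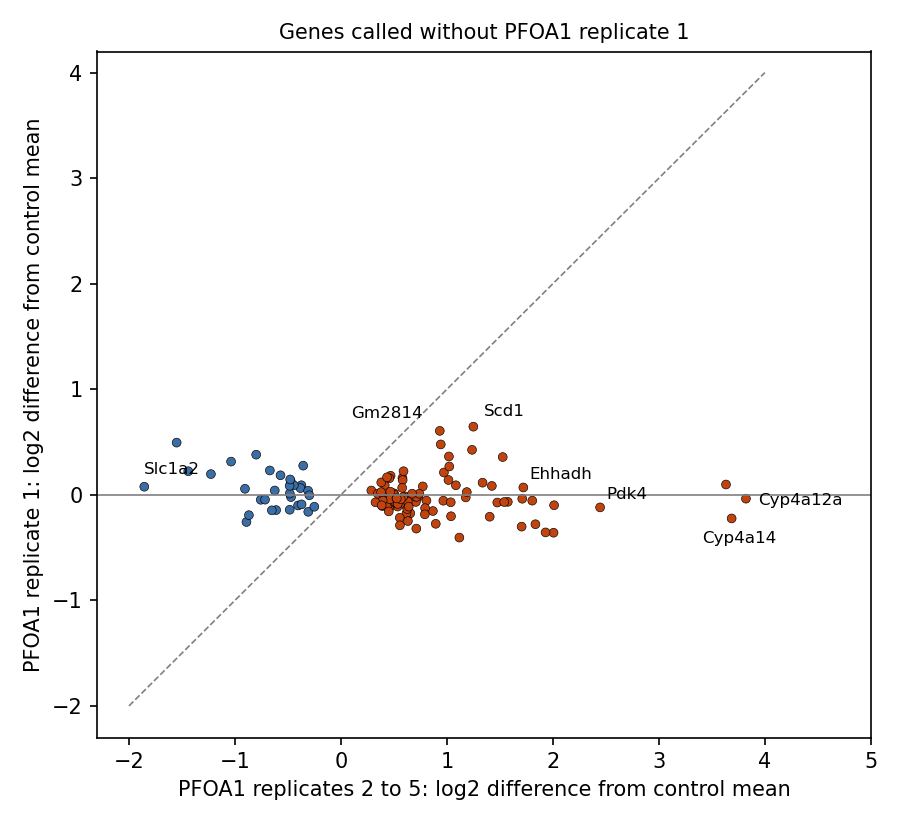
Each of the 125 genes called without PFOA1 replicate 1, with the log2 difference from the control mean in replicates 2 to 5 (mean) on the horizontal axis and in replicate 1 on the vertical axis. Orange points are higher and blue points lower in PFOA1; on the dashed diagonal replicate 1 would equal the others. The points lie along 0 instead, with a median of -0.05 in replicate 1 and 0.67 in the others over the 93 higher genes.

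The position of replicate 1 at these genes was that of a control liver. Over the 93 higher genes its median difference from the control mean was -0.053, against 0.672 in the other PFOA1 livers. It lay above all controls at 7 of the 93 (7.53%), below all controls at 12 (12.9%) and inside their range at 74. Among all genes tested, it lay above all controls at 13.5% and below at 18%. Over the 32 lower genes its median difference was 0.049, against -0.527 in the other PFOA1 livers, and it lay inside the control range at 25.

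Microsomal omega-oxidation, which starts at the methyl end of a fatty acid, had the highest median of the lists. Of its 9 measured genes 1 was called higher over all arrays and none lower, and 7 were called higher without replicate 1. The median log2 change of the list was 1.25, against 0.002 over all genes. By array, the list's median difference from the control mean was -0.06 in PFOA1 replicate 1 and 1.49 to 1.66 in the other PFOA1 livers, against -0.07 to 0.16 in the controls. Cyp4a14, an inducible fatty acid hydroxylase, read 8.55, 12.39, 12.41, 12.51 and 12.55 in PFOA1 and 8.70, 8.76, 6.03, 10.14 and 10.25 in control. The control livers themselves spread over more than 4 units, and replicate 1 lay within that spread. The log2 change of Cyp4a14 over all arrays was 2.90 (95% interval 1.6 to 4.21) with an adjusted p of 0.131, and without replicate 1 it was 3.69 (adjusted p = 0.000119).

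Cyp4a12a and Cyp4a12b, hydroxylases that are male-biased in mouse liver, spread widely between PFOA1 livers; both were singled out after their values were seen. Cyp4a12a read 5.01, 10.92, 6.82, 7.23 and 10.48 in PFOA1 and 4.95 to 5.09 in control. Cyp4a12b read 5.14, 10.64, 6.79, 7.06 and 10.22 in PFOA1 and 4.89 to 5.23 in control. Replicates 2 and 5 were high, replicates 3 and 4 lay between 6.79 and 7.23, and replicate 1 read as the controls did. Over all arrays neither was called (adjusted p = 0.26 for each). Without replicate 1, 7 of the 9 measured genes of omega-oxidation were called higher, Cyp4a12a among them. Cyp4a12a and Cyp4a12b were not well above background in control. The means of PFOA1 were thus at least 1.40-fold higher for Cyp4a12a (measured means 8.09 and 5.04) and at least 1.28-fold for Cyp4a12b (measured means 7.97 and 5.04). The probes of this near-identical pair may read each other's transcript. At 5 mg/kg/day all livers were high, with means of 12.18 ± 0.09 for Cyp4a12a and 12.13 ± 0.09 for Cyp4a12b (SD, n = 5).

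**Figure D3:**
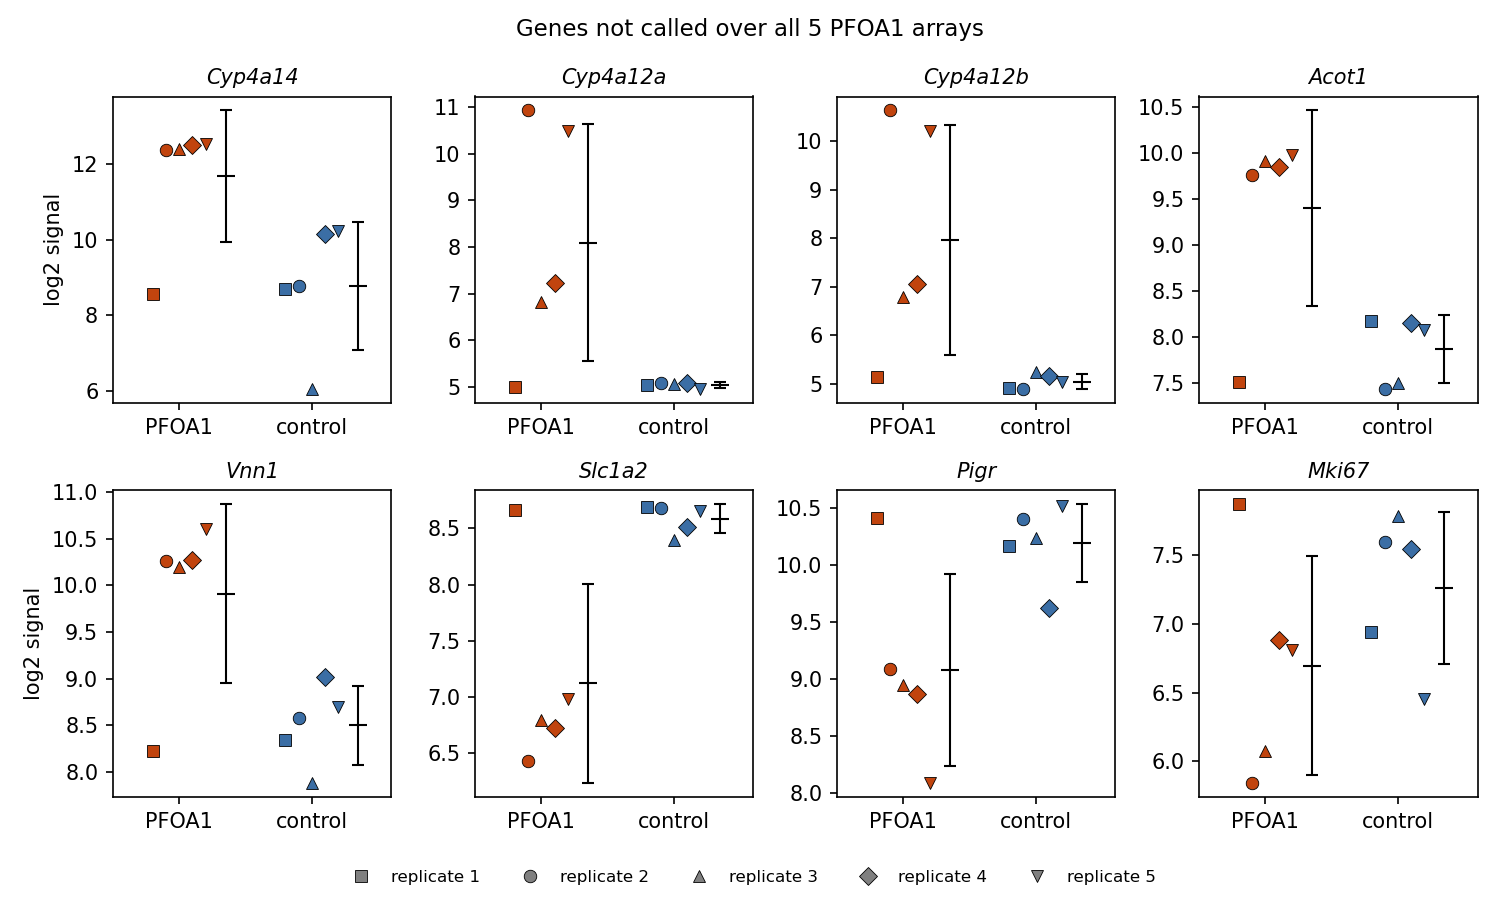
Log2 signal on each array of 8 genes that were not called over all 5 PFOA1 arrays, PFOA1 (orange) left of control (blue), with a marker shape per replicate number and a bar for the mean and SD (n = 5). For Slc1a2, PFOA1 replicate 1 (8.66) lies with the controls and the other PFOA1 arrays lie at 6.43 to 6.99, below the background percentile. Cyp4a12a and Cyp4a12b spread over more than 5 units within PFOA1.

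Peroxisomal beta-oxidation shortens long and branched fatty acids. Of its 25 measured genes 1, Ehhadh, was called higher over all arrays, and 11 were called higher without replicate 1, with none lower in either fit. The log2 change was above 0 for 23 of 25, with a median of 0.38, and 0.47 without replicate 1. By array the list's median was -0.08 in PFOA1 replicate 1 and 0.37 to 0.56 in the other PFOA1 livers, against -0.03 to 0.08 in the controls. Acaa1b, a peroxisomal thiolase, read 9.11, 10.47, 10.77, 10.85 and 10.81 in PFOA1, against 9.49, 8.96, 9.32, 9.42 and 9.43 in control. The first PFOA1 liver lay within the control range and the others more than 1 unit above the control mean. Its log2 change was 1.08 over all arrays (adjusted p = 0.107) and 1.40 without replicate 1 (adjusted p = 2.68e-06). Ehhadh changed by 1.72 without replicate 1, and the other 9 of the 11 had changes from 0.43 for the sterol carrier and thiolase gene Scp2 to 0.89 for the acyl-CoA thioesterase Acot3. Acot3 was above the background percentile on 2 of the 10 arrays only, so its change rests mostly on signals at background. Of the 13 measured genes of peroxisome assembly, 1 was called without replicate 1: Pex11a, which divides peroxisomes, at 7.04, 7.89, 8.34, 8.11 and 8.26 in PFOA1 and 6.90 to 7.28 in control, where it was not well above background.

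Mitochondrial fatty acid oxidation had no called gene among 19 measured over all arrays and 7 higher without replicate 1. All 19 log2 changes were above 0, with a median of 0.29, and 0.42 without replicate 1. By array the median was -0.06 in replicate 1 and 0.24 to 0.51 in the other PFOA1 livers, against -0.06 to 0.06 in the controls. Acot2, a mitochondrial acyl-CoA thioesterase, read 8.87, 10.46, 11.02, 10.88 and 11.14 in PFOA1 and 9.38, 8.84, 9.14, 9.29 and 9.22 in control. Acot2 had a log2 change of 1.30 over all arrays (adjusted p = 0.102) and 1.70 without replicate 1 (adjusted p = 2.26e-07). Cpt1a, which admits fatty acids to mitochondria and limits their oxidation, read 9.61, 10.31, 10.28, 10.03 and 10.32 in PFOA1 and 9.59 to 9.98 in control. Cpt1a was not called over all arrays (log2 change 0.29; adjusted p = 0.861) or without replicate 1 (0.42; adjusted p = 0.055). Of the 5 measured genes of ketone body metabolism none was called over all arrays and 2 were called without replicate 1, the thiolase Acat1 and the dehydrogenase Bdh1.

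Genes of fatty acid uptake, binding and signalling that respond to PPAR receptors numbered 27. Over all arrays 1 was called higher, Pdk4, and without replicate 1 there were 8, with none lower, and the median log2 change was 0.14 with it and 0.24 without it. Acot1, a cytosolic acyl-CoA thioesterase, read 7.51, 9.77, 9.91, 9.85 and 9.98 in PFOA1 and 8.18, 7.44, 7.51, 8.15 and 8.08 in control. Vnn1, the pantetheinase vanin-1, read 8.22, 10.26, 10.20, 10.27 and 10.61 in PFOA1 and 8.34, 8.58, 7.88, 9.01 and 8.69 in control. For both, replicate 1 lay inside the control range and every other PFOA1 liver above it. Neither was called over all arrays (adjusted p = 0.0892 for each), and without replicate 1 the log2 changes were 2.01 for Acot1 and 1.83 for Vnn1. Fabp1, the main fatty acid carrier of liver cells, read 11.83, 12.25, 12.38, 12.40 and 12.32 in PFOA1 and 11.87, 11.86, 11.80, 11.80 and 12.04 in control. Its log2 change was 0.36 over all arrays (adjusted p = 0.131) and 0.46 without replicate 1 (adjusted p = 9.65e-05). Cd36, a fatty acid transporter of the cell surface, had a change of 1.04 without replicate 1 and of 0.79 with it (adjusted p = 0.29). Fgf21, a fasting hormone of liver, ranged from 7.64 to 9.75 in PFOA1 and from 7.28 to 9.39 in control, and was not called (log2 change 0.14; 95% interval -0.65 to 0.92; adjusted p = 1).

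The promoters of genes that moved together were read for the PPAR element, since the receptor pair binds such repeats. The motif searched was a direct repeat, AGGNCA twinned with a second AGGNCA after 1 base of any kind, on both strands of the 250 bases before to 50 bases after each start in RefSeq (GRCm38.p6), and also the single half-site AGGTCA, which may lie within it. The repeat stood in 122 of 27025 promoters (0.451%). It stood in 1 of the 67 promoters available for the 93 higher genes (1.49%), that of Fabp1, in 0 of 22 for the 32 lower genes and in 0 of 6 for the 10 called genes. The half-site stood in 18.1% of all promoters, in 14 of the 67 (20.9%), in 4 of the 22 (18.2%) and in 1 of the 6 (16.7%). The promoters of Ehhadh and Pdk4, called over all arrays, and of Fabp1, the promoter with the repeat, are printed 5′ to 3′ on the gene's strand, with motif matches in capitals.
Ehhadh, chr16:21787785-21788084, minus strand: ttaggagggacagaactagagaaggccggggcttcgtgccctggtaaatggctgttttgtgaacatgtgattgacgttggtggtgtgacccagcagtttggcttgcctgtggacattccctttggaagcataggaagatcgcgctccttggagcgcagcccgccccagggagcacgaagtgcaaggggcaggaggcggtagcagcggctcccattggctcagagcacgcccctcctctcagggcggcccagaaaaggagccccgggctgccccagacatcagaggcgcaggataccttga
Pdk4, chr6:5496229-5496528, minus strand: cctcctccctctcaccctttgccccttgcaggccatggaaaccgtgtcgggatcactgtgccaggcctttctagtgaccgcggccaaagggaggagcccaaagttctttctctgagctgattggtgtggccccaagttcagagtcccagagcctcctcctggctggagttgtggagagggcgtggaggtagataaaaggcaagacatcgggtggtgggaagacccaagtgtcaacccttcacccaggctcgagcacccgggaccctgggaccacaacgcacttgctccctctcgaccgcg
Fabp1, chr6:71199629-71199928, plus strand: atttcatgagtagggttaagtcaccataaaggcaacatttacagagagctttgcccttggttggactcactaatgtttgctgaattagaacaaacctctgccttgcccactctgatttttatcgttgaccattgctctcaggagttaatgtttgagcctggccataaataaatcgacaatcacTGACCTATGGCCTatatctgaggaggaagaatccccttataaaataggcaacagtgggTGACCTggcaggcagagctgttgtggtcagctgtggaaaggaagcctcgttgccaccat
The Fabp1 repeat reads TGACCTATGGCCT on the printed strand, 67 to 55 bases before the start, and its first 6 letters are also a half-site. A second half-site lies 9 to 4 bases before the start. Neither motif was in these windows of Ehhadh and Pdk4. A match is a description of letters, and binding was not measured.

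On the genes that make fatty acids and cholesterol, PFOA1 replicate 1 did not read as the control mean. Of 24 measured genes of fatty acid synthesis and desaturation 2 were called higher, Scd1 and Scd3, with or without replicate 1, and the median log2 change was 0.23. By array the list's median was 0.19 in PFOA1 replicate 1 and 0.14 to 0.33 in the other PFOA1 livers, against -0.17 to 0.16 in the controls. Replicate 1 thus lay with the other PFOA1 livers on this list, at a level just above the highest control. Fasn, the fatty acid synthase, read 9.67, 9.75, 9.76, 9.53 and 9.43 in PFOA1 and 9.94, 9.61, 9.19, 9.19 and 8.96 in control, with overlapping groups and no call (adjusted p = 1). Of the 17 measured genes of cholesterol synthesis and uptake none was called over all arrays, all 17 log2 changes were above 0, and their median was 0.28. The list's median was 0.21 in replicate 1 and 0.24 to 0.32 in the other PFOA1 livers, against -0.16 to 0.29 in the controls, where control replicate 2 was the high one. Without replicate 1, the sterol synthesis gene Hsd17b7 was called (0.58; adjusted p = 0.00759).

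**Figure D4:**
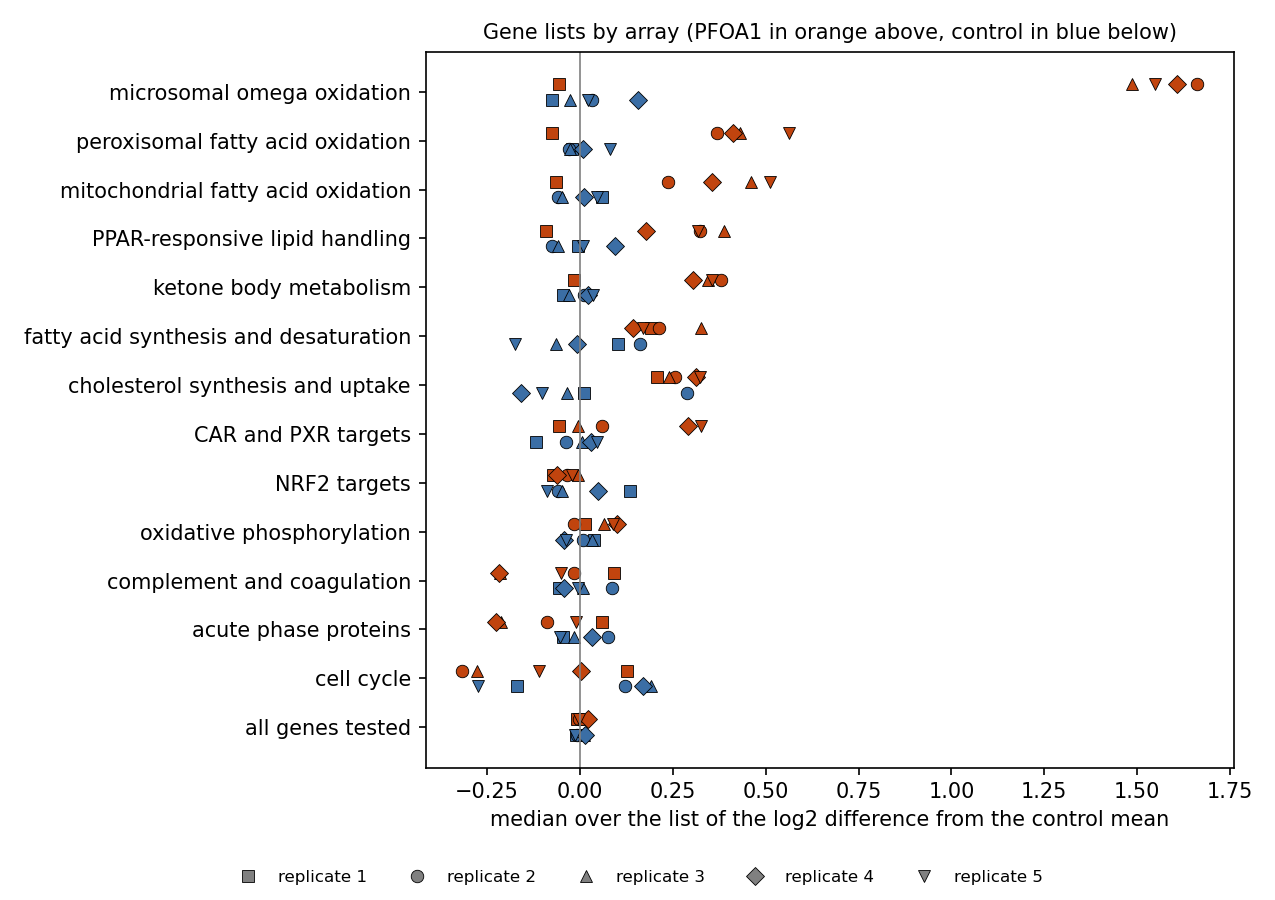
Median over each gene list of the log2 difference from the control mean, for each PFOA1 array (orange, upper row of a list) and control array (blue, lower row), with a marker shape per replicate number. PFOA1 replicate 1 (square) lies at -0.06 for microsomal omega-oxidation, where the other PFOA1 arrays lie at 1.49 to 1.66, and at 0.21 for cholesterol synthesis, where they lie at 0.24 to 0.32.

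Transport and drug metabolism had few calls at this dose. Pltp was the 1 called gene of 20 for lipoproteins and apolipoproteins, whose median log2 change was 0.05, and without replicate 1 the sterol exporter gene Abcg5 was called as well. No gene of the 19 for bile acid synthesis and transport was called over all arrays. The conjugate exporter Abcc3 read 6.87, 7.79, 8.57, 8.75 and 8.55 in PFOA1 and 6.79 to 7.19 in control, where it was not well above background, and was called without replicate 1 (adjusted p = 0.00599) but not with it (adjusted p = 0.293). Cyp7a1, the rate-limiting enzyme of bile acid synthesis, read 9.24, 9.72, 8.90, 9.74 and 9.45 in PFOA1 and 10.22, 9.57, 10.33, 9.54 and 9.96 in control, with a log2 change of -0.52 (95% interval -1.59 to 0.56; adjusted p = 1). None of the 21 CAR and PXR targets was called over all arrays, and the median was 0.09. Without replicate 1 the heme synthesis gene Alas1 was called higher (log2 change 0.73; adjusted p = 0.0231; 0.431 with it). Cyp2b10, the usual mark of CAR, read 8.34, 9.99, 10.00, 10.23 and 10.22 in PFOA1 and 8.33, 8.40, 9.66, 9.69 and 7.82 in control. The control livers split into high and low values, and Cyp2b10 was not called (log2 change 0.98; adjusted p = 0.923), nor without replicate 1 (adjusted p = 0.194). Of 12 NRF2 targets, genes of the oxidative stress response, none was called over all arrays (median -0.05), and Ephx1, the microsomal epoxide hydrolase, was called higher without replicate 1.

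The receptors of these pathways did not pass the test. Ppara read 8.5, 8.88, 8.82, 8.67 and 9.02 in PFOA1 and 8.31, 8.59, 8.29, 8.53 and 8.56 in control, a log2 change of 0.32 that was not called (adjusted p = 0.926). Rxra averaged 9.22 ± 0.15 in PFOA1 and 9.26 ± 0.11 in control (SD, n = 5 each), and was not called. Pparg, the related receptor of fat cells, was not well above background in either group, at means of 6.48 in PFOA1 and 6.08 in control (adjusted p = 0.698).

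Lower signals without replicate 1 fell on liver genes of several kinds, and none below was called over all arrays. Slc1a2, the glutamate transporter of hepatocytes around the central vein, read 8.66, 6.43, 6.79, 6.72 and 6.99 in PFOA1 and 8.69, 8.68, 8.40, 8.52 and 8.66 in control. Its log2 change was -1.47 over all arrays (adjusted p = 0.131) and -1.86 without replicate 1 (adjusted p = 0.000224). PFOA1 replicates 2 to 5 lay below the background percentile of their arrays, so the size of the Slc1a2 change is only bounded. The other measured markers of that zone did not pass in either fit, with a list median of -0.08 over 9 genes. Pigr, the receptor that carries immunoglobulin A into bile, read 10.41, 9.09, 8.95, 8.87 and 8.09 in PFOA1 and 10.17, 10.40, 10.23, 9.63 and 10.51 in control (singled out after its values were seen). Replicate 1 lay among the controls and the other PFOA1 livers below them, with a log2 change of -1.44 without replicate 1 (adjusted p = 0.0285) and of -1.11 with it (adjusted p = 0.52). The carboxylesterases Ces1b and Ces1c had every PFOA1 liver below every control. Ces1c read 11.73, 11.43, 11.50, 11.27 and 11.35 in PFOA1 and 11.81 to 11.95 in control, with a log2 change of -0.41 (adjusted p = 0.199). Ces1b averaged 9.64 ± 0.32 in PFOA1 and 10.40 ± 0.18 in control (SD, n = 5 each; adjusted p = 0.26), and its probe may also read its near copies.

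Other genes with low p values had the same split between replicate 1 and the rest. Pctp, a phosphatidylcholine carrier, read 7.07, 8.81, 9.47, 9.11 and 9.34 in PFOA1 and 6.87, 7.01, 7.05, 8.01 and 6.92 in control. Retsat, which saturates retinol, read 8.03, 10.00, 10.64, 10.18 and 10.47 in PFOA1, against 8.54, 8.09, 8.07, 8.80 and 8.45 in control. Replicate 1 was at control level for both, and without it their log2 changes were 2.01 (adjusted p = 1.46e-05) and 1.93 (adjusted p = 1.57e-06), while with it neither was called (adjusted p = 0.0892 and 0.125). For Pctp every control but replicate 4 lay below the background percentile of its array, so the size of the Pctp change is only bounded. Ppm1k, the phosphatase that switches on branched-chain amino acid breakdown, read 8.09, 8.73, 8.79, 8.98 and 9.10 in PFOA1 and 6.93, 8.13, 7.51, 7.80 and 7.93 in control. Its first PFOA1 value lay just under the highest control, and Ppm1k missed the threshold over all arrays (log2 change 1.07; adjusted p = 0.0612). Among lower genes, the phospholipase Pla1a read 7.99, 7.25, 7.42, 7.36 and 7.24 in PFOA1 and 7.95 to 8.15 in control. Its log2 change was -0.58 over all arrays (adjusted p = 0.104) and -0.72 without replicate 1 (adjusted p = 0.000403). PFOA1 replicates 2 to 5 lay below the background percentile of their arrays, so the size of the Pla1a change is only bounded. Lrtm1, a leucine-rich repeat membrane protein gene, read 7.54, 5.70, 5.45, 5.15 and 5.69 in PFOA1, where no array was well above background, against 7.02, 7.62, 7.29, 6.36 and 6.97 in control. Its replicate 1 value was higher than 4 of the 5 controls, and Lrtm1 was called lower without replicate 1 (adjusted p = 3.27e-06) but not with it (adjusted p = 0.219). Of the control arrays only replicate 2 lay above its background percentile for Lrtm1, so this call rests mostly on signals at background.

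Secreted plasma proteins and growth genes had no call over all arrays. The medians were -0.08 over 32 genes of complement and coagulation, -0.09 over 20 acute phase genes and -0.20 over 18 growth hormone and sex-biased genes. Orm1, an acute phase glycoprotein, read 11.57, 10.76, 10.36, 10.50 and 10.81 in PFOA1 and 11.21 to 11.71 in control, and was called lower without replicate 1 (log2 change -0.91; adjusted p = 0.0273). Hsd3b5, a male-biased steroid enzyme, read 6.86, 5.46, 5.44, 5.63 and 5.53 in PFOA1, against 6.66, 6.80, 7.03, 6.98 and 5.28 in control, with neither group well above background, and was called lower without replicate 1 (adjusted p = 0.0285). Of 20 cell cycle genes, 18 were not well above background on any of the 10 arrays and none was called. The proliferation marker Mki67 read 7.87, 5.84, 6.08, 6.88 and 6.81 in PFOA1 and 6.45 to 7.79 in control (adjusted p = 1). None of the 25 oxidative phosphorylation genes was called, with a median of 0.03.

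Markers of other cells did not pass over all arrays. Of the 12 marker lists, the Kupffer cell and macrophage list had the highest median, 0.14 over 14 genes, of which 12 were above 0 and 7 were not well above background on any array. Its summed linear signal was 1863 to 2679 in PFOA1 and 1582 to 2706 in control, so the groups overlapped. Its member Cd5l averaged 8.27 ± 0.24 in PFOA1 and 7.92 ± 0.26 in control (SD, n = 5 each; adjusted p = 1). The placenta and decidua list of 4 measured genes had a median of -1.26, with a summed linear signal of 99.2 to 163 in PFOA1 and 111 to 904 in control, with the highest values in control replicates 1 and 5.

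Livers at 5 mg/kg/day were set against those at 1 mg/kg/day. Between PFOA5 and PFOA1 livers 5713 genes were called (18.7%), 3109 higher in PFOA5 (10.2%) and 2604 lower (8.5%). With arrays centred on their medians the split was 3757 higher and 1004 lower, and without PFOA5 replicate 4 there were 3611 calls. Of the 10 genes called at 1 mg/kg/day, 6 also differed between the doses: Scd1, Ehhadh, Cyp4a32, Pdk4 and Pltp higher and Tbc1d9 lower at the higher dose. Without PFOA1 replicate 1 the first 5 were still called, with differences of 0.48 to 2.31, while Tbc1d9, not well above background at either dose, was not (-0.24; adjusted p = 0.128; -0.37 and 0.0416 with it). Pdk4 averaged 7.23 ± 0.47 in control, 9.16 ± 1.15 in PFOA1 and 11.98 ± 0.07 in PFOA5 (SD, n = 5 each), and PFOA5 exceeded PFOA1 by 2.82 ± 0.33 (SE, adjusted p = 3.74e-06). Ehhadh averaged 10.47 ± 0.10 in control, 11.86 ± 0.76 in PFOA1 and 13.01 ± 0.03 in PFOA5, a difference between the doses of 1.14 (adjusted p = 0.00037). For Pdk4 and Ehhadh the spread between livers was wider in PFOA1 than in control or PFOA5 with replicate 1 included. Without replicate 1 the PFOA1 SD was 0.14 for Pdk4, under that of control, and 0.18 for Ehhadh, still above control. Fabp5, Scd3, Gm2814 and Gm6166 did not differ between the doses by this test. The dose difference was 0.26 ± 0.16 (SE) for Fabp5 and 0.10 ± 0.09 (SE) for Scd3.

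**Figure D5:**
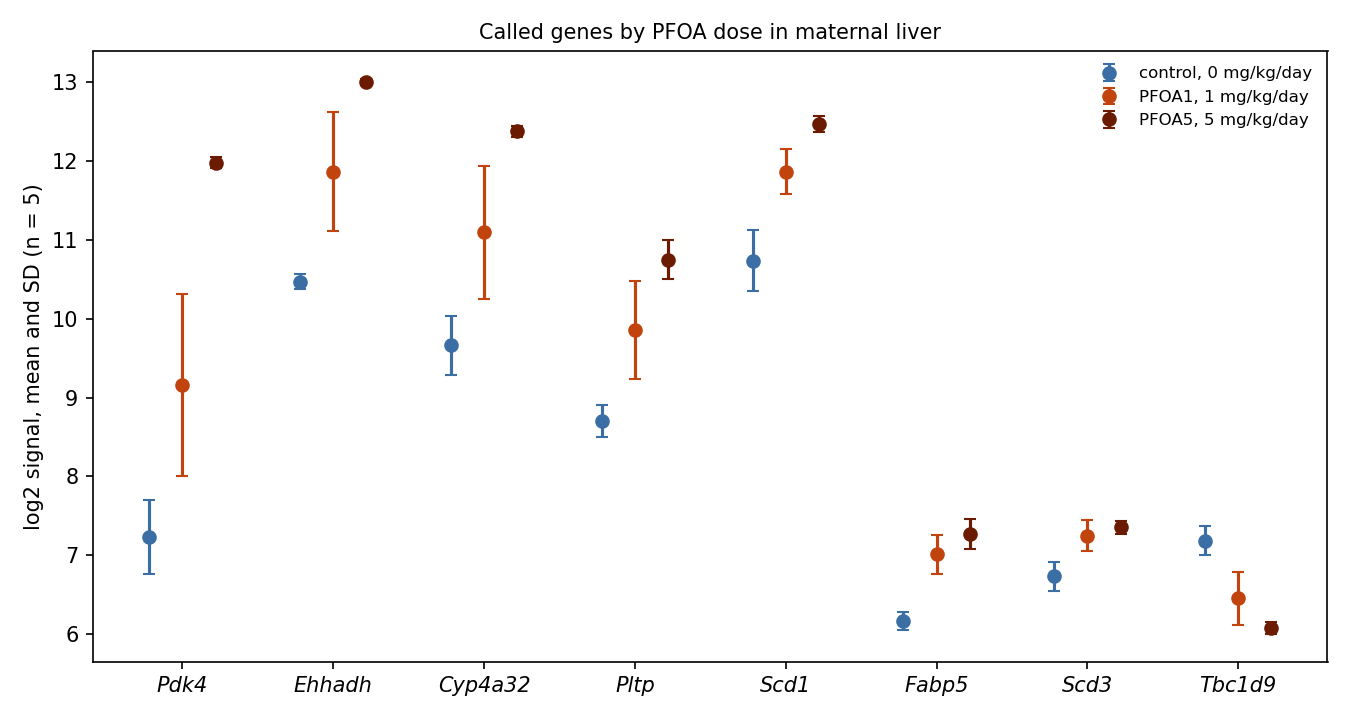
Mean log2 signal with SD (n = 5) of 8 called genes in maternal livers at 0 (blue), 1 (orange) and 5 mg/kg/day PFOA (dark brown). The PFOA1 mean lies between the others for all 8 genes, and for Pdk4 the means are 7.23 in control, 9.16 in PFOA1 and 11.98 in PFOA5.

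The gene lists were compared between the doses too. In mitochondrial fatty acid oxidation 17 of 19 genes were called higher in PFOA5 than in PFOA1, with a median difference of 0.86, and in peroxisomal oxidation 20 of 25 (median 0.67). In cholesterol synthesis 5 of 17 were (median 0.17), and in fatty acid synthesis 12 of 24, with 1 lower (median 0.39). Over all genes 10.2% were higher and 8.5% lower, and with the filter on dim genes 2507 of 7487 were higher and 645 lower. The cholesterol count was no higher than that filtered share. The list counts include PFOA1 replicate 1. For complement and coagulation 20 of 32 genes were called lower in PFOA5 than in PFOA1 and none higher (median -0.36), and for NRF2 targets 8 of 12 were higher (median 0.66). Pigr was at 6.58 ± 0.17 in PFOA5, lower than the 9.08 ± 0.84 of PFOA1 (SD, n = 5 each; difference -2.50; adjusted p = 1.97e-05). The PFOA5 mean lay under the lowest background percentile of those arrays, 7.38, so the size of the Pigr difference is only bounded. The PFOA1 mean includes replicate 1, which read as a control did for Pigr.

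The effect of 1 mg/kg/day was also set against the same dose in fetal liver, as the fetal log2 change minus the maternal one. That difference was called for 55 genes (0.180%), 40 of them positive (0.131%) and 15 negative (0.0490%), and for 4 of the 10 called maternal genes. Without maternal PFOA1 replicate 1 it was called for 73 genes, 49 positive and 24 negative, with 47 of them among the 55. The differences for single genes below include replicate 1. The fetal change exceeded the maternal one by 1.91 for Ehhadh (adjusted p = 8.65e-06, fetal change 3.30). The maternal change of Ehhadh was 1.39 with replicate 1 and 1.72 without it, so the difference is smaller without it. For Cyp4a32 the measured difference was 2.22 (adjusted p = 0.00324), but with means of 10.47 in fetal PFOA1 and 6.81 in fetal control it was not well above background in fetal control, so its fetal change and this difference are only bounded. Fabp5 and Gm6166 ran the other way, with fetal minus maternal differences of -0.95 and -1.28 (adjusted p = 0.00661 for each) and fetal changes of -0.11 and 0.01. Fabp5 was not well above background in either maternal group. Fabp1 differed by 1.25 (adjusted p = 2.22e-05), with a fetal change of 1.61. Slc1a2 was not well above background in either fetal group (means 4.87 in PFOA1 and 4.85 in control), so a fetal change could not be measured, and its difference of 1.49 (adjusted p = 0.0416) does not compare effects of PFOA. For Scd1 the difference of -0.39 and for Pdk4 that of 0.16 were not called (adjusted p = 1 for each). The fit treated maternal and fetal arrays as independent, since the labels call the tissues matched without naming the pairs.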

How the data were processed

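Total RNA of maternal livers was hybridised to Affymetrix whole-transcript arrays after amplification and biotin labelling, per the labels' protocols, which state RNA integrity numbers above 5. What the authors deposited is 1 log2 value per feature and array; RMA is the method and mm10 the build named, without versions, per the submitters' processing notes. RMA normalizes by quantiles, so a shift of most genes in 1 direction would be partly removed. The table holds 72688 features, of which 65956 are transcript clusters and 5222 negative controls. The number of arrays limits the precision.

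Gene names came from the platform annotation of 32750 probes: 30468 carried a single symbol and 612 carried synonyms of the same gene, while the 1670 that pointed to different genes were dropped. Of 23430 probes matched by gene identifier, 874 symbols were updated. The brightest probe was kept for the 357 genes with more than 1, which left 30627 genes, and 33206 transcript clusters are unnamed here. Positions and promoters are those of RefSeq, GRCm38.p6.

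Groups follow the sample titles. For 2 fetal arrays, PFOA5 replicate 6 and GenX replicate 5 at 2 mg/kg/day, the source name gives another group than the title; they enter only the spread of the fit over all arrays. The tests used limma 3.58.1 under R 4.3.3 (functions lmFit and eBayes), with a fit over the 5 maternal groups (25 arrays: control, PFOA1, PFOA5 and GenX at 2 and 10 mg/kg/day), which share 1 estimate of the spread, and another over all 10 groups (50 arrays) for the fetal minus maternal difference. Adjusted p-values are Benjamini-Hochberg over all genes, two-sided. Tables and figures were made in Python 3.11.15 (numpy 2.4.6, pandas 2.3.3, matplotlib 3.10.9) and with the R package data.table (version 1.17.8). The procedure was tested on simulated data in which a changed gene changed alike on every PFOA1 array. That test does not cover a PFOA1 array at control level. A lower bound ("at least") sets the brighter group's mean against, per array, the gene's own signal or the negative controls' 95th percentile, whichever is higher.

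Named genes were all called genes, the 12 higher and 12 lower genes with the smallest p among the rest, the 10 and 10 with the smallest p without PFOA1 replicate 1, up to 3 called members (or the 1 with the smallest p) of each of 34 gene lists, 12 of which are cell type markers, and anchor genes. Predicted genes, small RNAs and receptor families were left out of the ranked parts, and other genes that are named were chosen after their values were seen. The members and lists were chosen with earlier results of these data known. Alternatives covered variance moderation, a filter on dim genes, normalization, probe averaging, array weights, the samples in the fit, a 1.5-fold minimum, a replicate block and leaving out each array.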

Additional observations from a re-analysis of the deposited data

Results flagged for a closer look

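The 74 named genes were examined, with Cyp4a12a, Cyp4a12b, Fabp1 and Pigr added after their values were seen. In PFOA1 replicate 1 the value lay far from the 4 other PFOA1 arrays, by Dixon's test on groups of 5, for 23 of these genes. Below the others were Ehhadh at 10.54, Cyp4a32 at 9.61, Pdk4 at 7.11, Pltp at 8.79, Cyp4a31 at 10.22, Vnn1 at 8.22, Acot1 at 7.51, Pctp at 7.07, Acaa1b at 9.11, Retsat at 8.03, Cyp4a14 at 8.55, Blvrb at 8.84, Ephx1 at 10.38, Angptl4 at 7.91, Cyp2b10 at 8.34 and Fabp1 at 11.83. Above the others were Phldb2 at 7.44, Pla1a at 7.99, Slc1a2 at 8.66, Efhb at 4.46, Lrtm1 at 7.54, Nrbp2 at 8.72 and Hsd3b5 at 6.86. Chance flags about 1 group in 20 by this test. Over all 30627 genes it flagged 5.10% in PFOA1, of which replicate 1 made 384 and replicate 4 made 512, so replicate 1 did not lead there. Part of the 74 named genes were picked for a small p without replicate 1, and Fabp1 was added after its values were seen. The lead of replicate 1 among the examined genes was thus partly set by that choice.

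Other arrays far from their group were PFOA1 replicate 4 for the extracellular matrix gene Reln (7.56), PFOA1 replicate 2 for the erythroid heme gene Alas2 (8.71), control replicate 1 for Tbc1d9 (7.51) and Prl2c2 (7.97), control replicate 4 for the phosphatidylcholine carrier Pctp (8.01) and for Efhb (4.32), and control replicate 5 for Hsd3b5 (5.28) and Fabp1 (12.04).

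The PFOA1 effect differed between fetal and maternal liver, by the test of the difference itself, for 10 of the examined genes, with maternal PFOA1 replicate 1 included. These were named genes and the added Fabp1. The fetal minus maternal difference in log2 change was 1.91 for Ehhadh, 2.22 for Cyp4a32, 2.25 for Cyp4a31, 1.54 for Acot2, 1.25 for Fabp1, 0.73 for the acyl-CoA synthetase Slc27a2, 1.49 for Slc1a2, 0.39 for Efhb, -1.28 for Gm6166 and -0.95 for Fabp5. Slc1a2 was not well above background in either fetal group, Cyp4a32 in fetal control, Fabp5 in either maternal group and Efhb in any of the 4 groups, so these differences rest on signals at background. Cyp4a31 averaged 7.23 ± 0.85 (SD) in fetal control, under the background percentiles of 7.86 to 7.94 there. Its difference thus rests partly on signals at background.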

How the results depend on the processing

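The count of genes called between PFOA1 and control, 10, stayed within 1.5 times under an intensity trend (10), robust moderation (10), repeated quantile normalization (15), median centring (8) and averaged probes (10). It was 24 with a filter on dim genes, which tests 7487 genes, 38 with array weights, and 0 both with only the groups in the contrast (limma; 1712 genes at an unadjusted p under 0.05) and with a 1.5-fold minimum (limma treat; 28 at an unadjusted p under 0.05). Leaving out 1 array gave 1 to 125 calls: 125 without PFOA1 replicate 1, 2 without PFOA1 replicate 2 or 5, 1 without PFOA1 replicate 3 or 4, 2 without control replicate 1 or 4, 3 without control replicate 3 or 5, and 9 without control replicate 2. After seeing the data, leaving out PFOA1 replicate 1 was combined with array weights (161 calls) and with only the groups in the contrast (147 calls). For PFOA5 against PFOA1, the 5713 calls became 3152 with the dim filter and 73 with the 1.5-fold minimum, and leaving out 1 array gave 3611 (without PFOA5 replicate 4) to 6687. Median centring split them 3757 higher and 1004 lower, against 3109 and 2604. The 55 fetal minus maternal calls became 6 with the 1.5-fold minimum, and 37 to 73 when 1 array was left out. Labels share replicate numbers without naming pairs, and same-numbered PFOA1 and control arrays deviated together with correlations of -0.193 to 0.09. These values showed no pairing by number. They cannot exclude it, since most genes lay at background. With a replicate block the counts were 8, 5877 and 55, and 7 of the 8 were among the 10. Among named genes, 1380 repeats kept direction and side of the threshold, 130 gained and 93 lost the call, and 5 changed sign: Rxra at 0.0027 (array weights), 0.0213 (without PFOA1 replicate 4) and 0.0101 (without control replicate 1), and Fgf21 at -0.141 (without PFOA1 replicate 2) and -0.1671 (without control replicate 2), none of them called; over the fits that left out 1 array Rxra ran from -0.0745 to 0.0213 and Fgf21 from -0.1671 to 0.3843. The cause was not tested, apart from the smaller number of genes or arrays in a fit. Genes not well above background have compressed differences.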
